A study of Mus musculus with 6 samples.

Results

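The histone lysine methyltransferases and demethylases are the enzymes that write and erase methyl groups on lysines of the histone tails. Methyltransferases of this kind share a catalytic SET domain (the PR domain of PRDM proteins is a relative of it), and demethylases use either the JmjC fold, which needs iron and 2-oxoglutarate, or the flavin-dependent amine oxidase fold of LSD1 (Kdm1a). Methylation of histone H3 at lysine 4 marks promoters and enhancers, and methylation at lysine 36 marks transcribed gene bodies. Silent chromatin is marked by methylation at H3 lysine 9 and by trimethylation at H4 lysine 20. In leukemia driven by MLL-AF9 this system is of interest because MLL itself (Kmt2a) is an H3 lysine 4 methyltransferase whose catalytic part is lost in the fusion.

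The genes were taken by name: every row of the count table whose Ensembl ID belongs to a protein-coding symbol beginning with Kdm, Kmt, Setd, Prdm, Suv39, Ehmt, Nsd, Smyd or Jmjd, with Kmt2a and Kdm5d left out. This gave 65 genes of 35932 in the table. The prefixes also take Nsdhl, a sterol synthesis enzyme with no role in chromatin, which is counted among the 65. No measured value entered the choice by the rule.

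RNA sequencing was done on mouse bone marrow myeloid leukemic blasts of genotype MLL-AF9+, in 6 libraries. Chemotherapy-resistant blasts (3 libraries) carry the treatment label Cytarabin+Doxorubicin, the nucleoside analog cytarabine with the anthracycline doxorubicin. Chemotherapy-sensitive blasts (3 libraries) carry the treatment label vehicule (vehicle), so resistance and drug exposure cannot be told apart. Both groups carry the fusion. Neither age, strain, dose, time of harvest nor the way the fusion was introduced is given in the labels, and nothing in them states that the 3 replicates of a group are 3 different mice. The p-values are thus set by library-to-library spread, which could be technical.

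Between 22206341 and 31856009 counts were available for a library, and the first principal component, with 65.7% of the variance, separated the groups. The 8 blast markers, among them Mpo, Spi1, Kit and Hoxa9, were detected in every library and summed to 2534 to 3071 CPM in resistant and 3101 to 3526 CPM in sensitive libraries (CPM, counts scaled to a common library size with TMM factors), with 1 higher (Hoxa9) and 3 lower (Kit, Itgam and Cebpa). Markers of mature cells moved with the groups: the sum of the 4 globin genes was 0.126 to 1.32 CPM in resistant and 42.2 to 73.2 CPM in sensitive libraries, with 4 of 4 lower, and the sum of 5 mature neutrophil genes was 11.7 to 18.4 CPM in resistant and 53.3 to 66.8 CPM in sensitive libraries, with 4 of the 4 tested lower. No B cell, plasma cell, T cell, macrophage, stromal or endothelial marker passed the test, 1 of 4 megakaryocyte markers (Itga2b) was lower, and the B cell marker Ms4a1 was at 0 in all resistant libraries. The part of these cells in the results below was not tested. In bulk RNA, fewer cells of a type and less RNA per cell cannot be told apart.

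For most of this enzyme family no difference in transcript level between resistant and sensitive blasts passed the test, and the largest changes were in the H3 lysine 9 demethylase genes Jmjd1c and Kdm3a. Of the 65 genes, 56 had enough counts to be tested. Of these, 5 were higher and 7 lower in resistant blasts and 44 did not pass (edgeR quasi-likelihood test, Benjamini-Hochberg adjustment over 13414 genes, threshold 0.05). The higher genes were Jmjd1c, Kdm3a, Smyd5, Prdm11 and Setd2. The lower genes were Jmjd8, Kdm7a, Kmt5b, Setd1b, Nsd3, Kdm3b and Kdm2a. These 12 calls are 21.4% of the tested members, against 39.2% of all tested genes. In single directions, 5 of 56 stand beside a background of 18.5% higher, and 7 of 56 beside a background of 20.8% lower. The role groups below are small, and their counts of calls stand beside these same shares.

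The changes were also small. The median log2 fold change of the tested members was -0.02, against -0.01 over all tested genes, and the median size with the sign dropped was 0.13, against 0.22. Only Jmjd1c changed by more than 1.5-fold, which is 1.79% of the members, against 18.03% of all tested genes, and no member changed by more than 2-fold, against 8.45%. The 3 resistant values lay apart from the 3 sensitive ones in 23 of 56 members (41.1%), against 52.4% of all tested genes. The members had a median level of 67.3 CPM, against 26.8 CPM over all tested genes, and a median standard error of 0.07, against 0.09, on the log2 scale. Low-level genes hold many of the large changes, so the contrast in size was narrower among the 3642 genes at or above the members' median level. Of these, 3.71% changed by more than 1.5-fold and 0.906% by more than 2-fold, their median size of change was 0.16, and 46.5% passed the test. The members were not cut at that level, and all 56 were kept. Among the 9261 genes at or above the lowest tested member, 7.72% changed by more than 1.5-fold. Their median size of change was 0.17, and 42.1% passed.

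**Figure D1:**
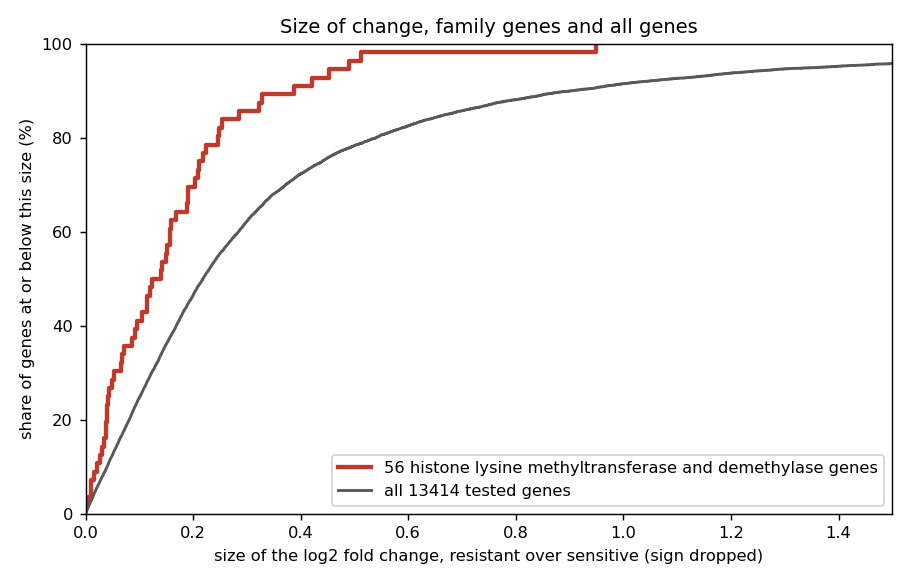
Cumulative share of genes (y axis, percent) by the size of the log2 fold change between resistant and sensitive blasts with its sign dropped (x axis), for the 56 tested methyltransferase and demethylase genes (red) and all 13414 tested genes (grey). The red curve lies above the grey one: the median size is 0.13 for the members and 0.22 for all genes, and the last red step is Jmjd1c at 0.95.

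The promoters of the members with the largest rises and the largest falls are shown here because these genes open and close the list of changes. The RefSeq table (build GRCm38.p6) held 66 promoters, each with 250 bases before and 50 after a transcription start, for 49 of the 65 genes. Capitals mark the core of the hypoxia response element, ACGTG or GCGTG on either strand (CACGT and CACGC on the printed strand), through which hypoxia-inducible factors are known to act on human KDM3A. For Jmjd1c 1 of 2 listed starts is printed and for Kdm3a 1 of 3, each chosen because it holds the core; the other listed starts of both genes held none.
Jmjd1c, chr10:67126838-67127137, plus strand: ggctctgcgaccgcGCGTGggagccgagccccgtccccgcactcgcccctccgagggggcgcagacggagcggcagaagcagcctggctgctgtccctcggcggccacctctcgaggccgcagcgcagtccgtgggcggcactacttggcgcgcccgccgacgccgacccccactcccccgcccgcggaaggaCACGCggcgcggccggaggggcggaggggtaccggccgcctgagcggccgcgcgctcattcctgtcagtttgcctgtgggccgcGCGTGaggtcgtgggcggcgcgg
Kdm3a, chr6:71632868-71633167, minus strand: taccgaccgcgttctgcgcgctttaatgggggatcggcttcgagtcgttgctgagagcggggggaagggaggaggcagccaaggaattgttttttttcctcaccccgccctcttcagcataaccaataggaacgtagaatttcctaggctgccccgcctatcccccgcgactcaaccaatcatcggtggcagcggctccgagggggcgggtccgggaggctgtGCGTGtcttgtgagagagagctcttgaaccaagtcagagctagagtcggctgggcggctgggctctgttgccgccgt
Kdm7a, chr6:39206724-39207023, minus strand: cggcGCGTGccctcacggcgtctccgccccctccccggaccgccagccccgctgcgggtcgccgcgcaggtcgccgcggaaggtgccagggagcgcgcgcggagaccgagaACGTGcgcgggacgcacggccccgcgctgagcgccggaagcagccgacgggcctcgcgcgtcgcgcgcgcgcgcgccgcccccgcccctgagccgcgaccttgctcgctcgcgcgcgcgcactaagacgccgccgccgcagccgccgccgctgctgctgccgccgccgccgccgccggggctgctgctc
Jmjd8, chr17:25828793-25829092, plus strand: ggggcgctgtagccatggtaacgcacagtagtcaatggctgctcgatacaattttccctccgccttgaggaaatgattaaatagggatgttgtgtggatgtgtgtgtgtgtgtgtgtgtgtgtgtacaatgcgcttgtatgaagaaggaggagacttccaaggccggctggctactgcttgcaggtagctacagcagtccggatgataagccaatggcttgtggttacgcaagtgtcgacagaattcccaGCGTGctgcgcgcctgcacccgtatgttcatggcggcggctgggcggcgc

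The core stood 3 times in the Jmjd1c promoter and 1 time in that of Kdm3a, the 2 largest rises. It stood 2 times in the Kdm7a promoter and 1 time in that of Jmjd8, the 2 largest falls. Over the members, 44 of 66 promoters (66.7%) held ACGTG or GCGTG, against 43.8% of all 32851 promoters in the table. The promoters of the members were rich in CpG, with a median of 25 CpG in 300 bases, against 7 over all promoters, and both motifs contain a CpG. ACGTG also forms part of the E-box CACGTG, which none of the 4 printed promoters held and 9.09% of the members' promoters and 7.15% of all promoters did. Other common promoter elements were frequent too: the GC box GGGCGG was present on either strand in 66.7% of the members' promoters, against 35.7% of all, and CCAAT in 48.5%, against 37.4%. A match describes the letters of these windows only.

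The role group of H3 lysine 9 demethylases held the 2 largest changes of the family. Roles were assigned by gene, and no enzyme activity was measured, that of Jmjd1c included. Jmjd1c and Kdm3a rose, while Kdm3b, the third gene of the same KDM3 branch, fell. Jmjd1c encodes a large JmjC protein of the KDM3 branch that earlier work in mouse and human found to be needed by acute myeloid leukemia cells. It was at 538, 471 and 524 CPM in resistant libraries, against 266, 264 and 265 CPM in sensitive libraries. The groups were far apart, and the sensitive libraries were almost equal. The log2 fold change was 0.95 ± 0.06 (SE, n = 3 per group, edgeR adjusted p = 1.25e-06), or 1.93-fold.

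Kdm3a, which removes methyl groups from mono- and dimethylated H3 lysine 9, was at 94.6, 90.7 and 84.5 CPM in resistant libraries, against 64.8, 61.6 and 62.6 CPM in sensitive libraries. Every resistant value was above every sensitive one. The rise was 0.51 ± 0.06 on the log2 scale (edgeR adjusted p = 0.000118). Kdm3b, with the same substrate, was at 169, 163 and 174 CPM in resistant libraries, against 206, 199 and 196 CPM in sensitive libraries. All 3 resistant values were below the sensitive ones, and the log2 fold change was -0.25 ± 0.05 (edgeR adjusted p = 0.00371).

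The ratio of counts of a gene pair within a library does not depend on the scaling between libraries. The ratios below restate the KDM3 calls in these terms and are no further test of them. The counts of Jmjd1c were 3.19, 2.89 and 3.01 times those of Kdm3b in resistant libraries, against 1.29, 1.33 and 1.35 times in sensitive libraries. The ratio of Kdm3a to Kdm3b was 0.561, 0.555 and 0.485 in resistant libraries, against 0.315, 0.309 and 0.319 in sensitive libraries. Neither ratio could overlap between the groups, since each gene lay apart in CPM and Kdm3b moved the other way. Jmjd1c also gained on Kdm3a, with a mean ratio of 5.7 ± 0.506 in resistant and 4.2 ± 0.0921 in sensitive libraries (SD, n = 3 each). These ratios compare a pair between libraries and say nothing of relative transcript numbers, since the genes differ in length.

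Kdm4a, Kdm4b and Kdm4c, KDM4 demethylases that act on trimethylated H3 lysines 9 and 36, did not pass the test. Kdm4a was at 134 ± 4.26 CPM in resistant and 122 ± 4.69 CPM in sensitive libraries (log2 fold change 0.14 ± 0.05, edgeR adjusted p = 0.0623). Kdm4b was at 33 ± 2.22 CPM in resistant and 28.5 ± 2.17 CPM in sensitive libraries (0.21 ± 0.08, edgeR adjusted p = 0.0698). Neither gene overlapped between the groups. Kdm4a passed in 3 of 14 alternative fits, with upper quartile scaling (edgeR adjusted p = 0.049), a CPM filter (0.0474) and a replicate block (0.0459). Kdm4c, known as a dependency of MLL-fusion leukemia in earlier work, had a log2 fold change of -0.11 ± 0.10 with overlapping groups. Kdm4d, a testis-enriched gene, had 0 counts in the resistant libraries and 2 in all in the sensitive ones, and was not tested.

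**Figure D2:**
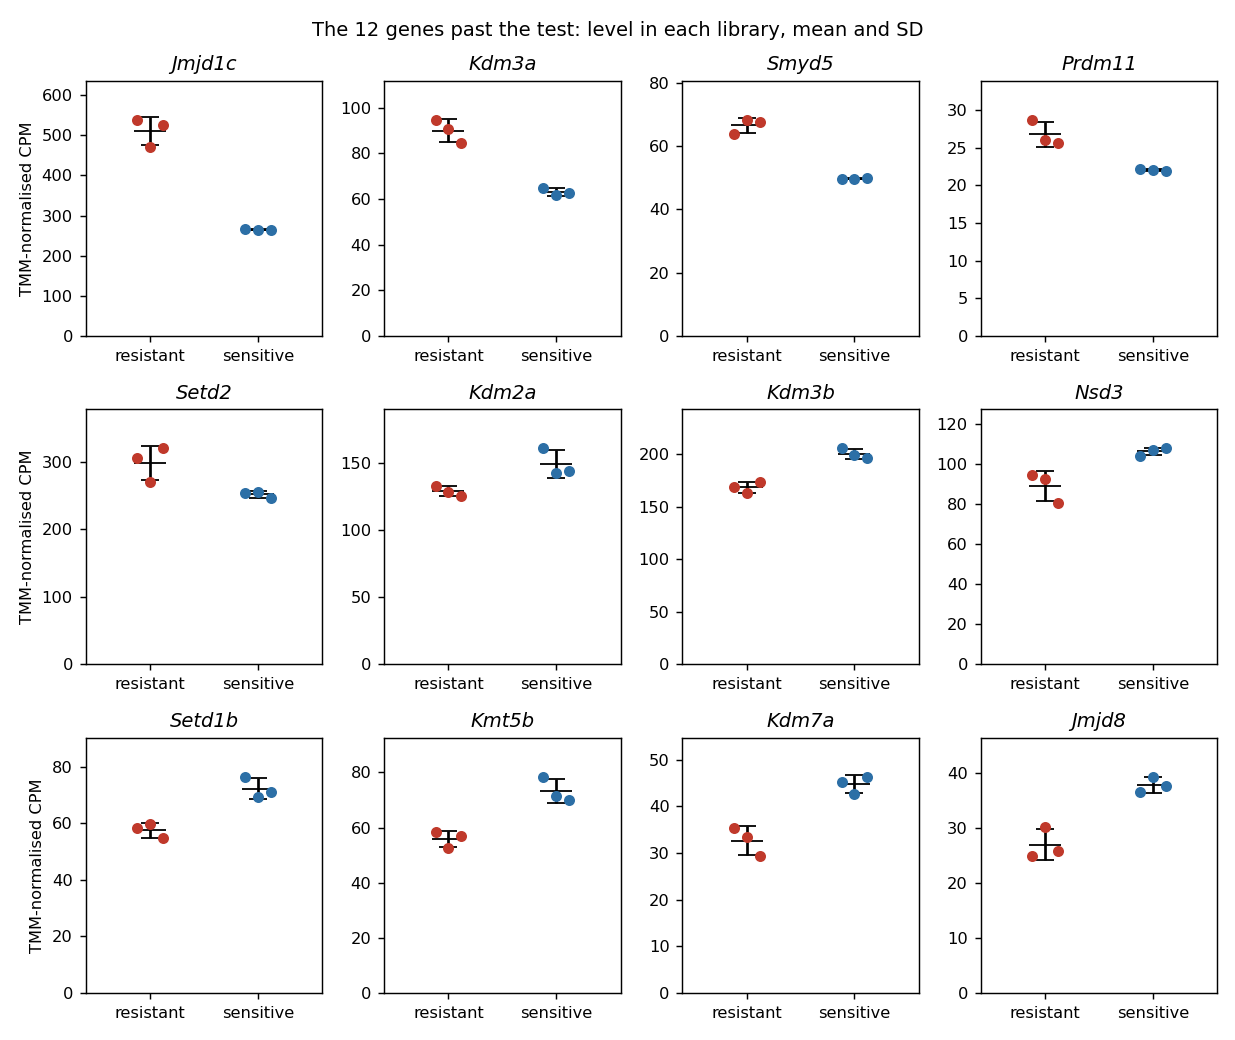
Level of each of the 12 genes past the test, as TMM-normalised CPM on a linear axis from 0, in the 3 resistant (red, left) and 3 sensitive (blue, right) libraries of each panel, with mean and SD in black. In each of the 12 panels the groups do not overlap, and Jmjd1c (511 ± 35.2 CPM in resistant, 265 ± 0.962 CPM in sensitive libraries) shows the widest gap.

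H3 lysine 9 methyltransferases, the counterpart of these erasers, did not pass the test in any of 6 genes, and in none of the 6 did the groups lie apart. Over all tested genes, 39.2% passed and 52.4% had groups that lay apart. Ehmt2 (G9a), which with Ehmt1 makes mono- and dimethylated H3 lysine 9, was at 207, 235 and 217 CPM in resistant libraries, against 214, 207 and 216 CPM in sensitive libraries. The sets overlapped (log2 fold change 0.05 ± 0.06, edgeR adjusted p = 0.508). Ehmt1 was at 71.1, 72.9 and 54.4 CPM in resistant libraries, against 81.8, 71.2 and 73.4 CPM in sensitive libraries. Resistant library 3 was the lowest of the 6, and the change was not called (-0.19 ± 0.10, edgeR adjusted p = 0.17). Suv39h1 and Suv39h2, which make the trimethyl mark of heterochromatin, had log2 fold changes of 0.04 ± 0.05 and -0.01 ± 0.10. Setdb1, which silences endogenous retroviruses, was at -0.09 ± 0.06, and its relative Setdb2 at 0.20 ± 0.08 (edgeR adjusted p = 0.0784, and 0.0163 without resistant library 2). That was the only 1 of 14 alternative fits in which Setdb2 passed. Per kilobase of exon, Ehmt2 had the highest level of the 65 genes, with 40.1 CPM per kb in resistant and 38.6 CPM per kb in sensitive libraries.

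Among the H3 lysine 4 methyltransferases only Setd1b passed the test (16.7% of 6 genes, against 39.2% of all tested genes). Log2 fold changes were below 0 in 5 of the 6, with a median of -0.14. Over all tested genes, 6815 of 13414 were below 0, with a median of -0.01. Setd1b is a catalytic subunit of a COMPASS complex. It was at 58.3, 60 and 54.7 CPM in resistant libraries, against 76.5, 69.5 and 71 CPM in sensitive libraries. The resistant values were all lower (log2 fold change -0.33 ± 0.06, edgeR adjusted p = 0.00274). Its paralog Setd1a did not pass (0.07 ± 0.07). The ratio of Setd1a to Setd1b counts was 1.69 to 2.19 in resistant libraries, against 1.39 to 1.51 in sensitive libraries. It uses the same counts as the Setd1b call and is no further test of it. Kmt2d, which places the monomethyl mark on enhancers, was at 155, 178 and 170 CPM in resistant libraries, against 181, 191 and 190 CPM in sensitive libraries. The groups did not overlap, and the change was just outside the threshold (-0.16 ± 0.06, edgeR adjusted p = 0.0605). Kmt2d passed in 3 of 14 alternative fits. These were without resistant library 2 (edgeR adjusted p = 0.0326), with library totals in place of TMM factors (0.0269) and with a replicate block (0.0321). Kmt2b, the closest relative of the fused gene, did not pass (-0.12 ± 0.05, edgeR adjusted p = 0.0795, and 0.0289 with library totals), and Kmt2c and Setd7 had overlapping groups.

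The H3 lysine 4 demethylases held no call among 5 genes, against 39.2% of all tested genes. Of 14 alternative fits, Kdm5a passed in 1 and Kdm5c in 2. Kdm1a (LSD1), the target of inhibitors tried in acute myeloid leukemia, was at 72.5, 74.3 and 69.1 CPM in resistant libraries, against 72.6, 70.3 and 65.8 CPM in sensitive libraries. These ranges overlapped widely (0.05 ± 0.06, edgeR adjusted p = 0.555). Kdm5c, an X-linked demethylase, was at 96.8, 127 and 92.8 CPM in resistant libraries, against 130, 120 and 119 CPM in sensitive libraries. Resistant library 2 lay within the sensitive range and the other 2 below it. Over all libraries Kdm5c did not pass (-0.22 ± 0.10, edgeR adjusted p = 0.109). Without resistant library 2 it did (-0.37, edgeR adjusted p = 0.00234), as it did with no low-count filter (edgeR adjusted p = 0.0344). It did not pass without resistant library 1 (edgeR adjusted p = 0.296) or without resistant library 3 (0.351). Kdm5a, a paralog known from drug-tolerant states of human cancer lines, stood apart in the same library, with 98.8 CPM in resistant library 2, against 124 and 132 CPM in the other resistant libraries and 102 to 110 CPM in sensitive libraries. Its log2 fold change was 0.17 ± 0.09 over all libraries (edgeR adjusted p = 0.177) and 0.29 ± 0.06 without resistant library 2 (edgeR adjusted p = 0.00632). Kdm5a passed in no other fit. The ratio of Kdm5a to Kdm5c counts restates these values. It was 0.778 in resistant library 2, against 1.28 and 1.42 in the other resistant libraries and 0.843 to 0.883 in sensitive libraries.

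Among the 4 H3 lysine 36 methyltransferases 1 rose, 1 fell and 2 did not pass (50% called, against 39.2% of all tested genes). Setd2 makes the trimethyl mark over transcribed gene bodies, and its loss has been tied to chemotherapy resistance in human and mouse leukemia. It was at 305, 270 and 320 CPM in resistant libraries, against 253, 255 and 246 CPM in sensitive libraries. All resistant values were higher (0.25 ± 0.06, edgeR adjusted p = 0.0122), a call that was lost without sensitive library 3 (edgeR adjusted p = 0.0523). Nsd3, whose short isoform lacks the SET domain, was at 94.6, 92.4 and 80.4 CPM in resistant libraries, against 104, 107 and 108 CPM in sensitive libraries. All resistant values were lower (log2 fold change -0.25 ± 0.07, edgeR adjusted p = 0.0125), and counts per gene do not separate its isoforms. Nsd1 (0.12 ± 0.06) and Nsd2 (-0.09 ± 0.06), which make the dimethyl mark, did not pass. Relative to Nsd3, counts of Setd2 were 2.92 to 3.98 times as many in resistant libraries, against 2.28 to 2.43 times in sensitive libraries. This gap follows from the opposite moves of both genes and is no further test of them.

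Among the H3 lysine 36 demethylases Kdm2a, a CpG island binding protein, was lower. It was at 133, 129 and 126 CPM in resistant libraries, against 161, 143 and 144 CPM in sensitive libraries. The groups did not overlap, and the log2 fold change was -0.21 ± 0.06 (edgeR adjusted p = 0.0195). Leaving out resistant library 2 (edgeR adjusted p = 0.0503), resistant library 3 (0.0645) or sensitive library 1 (0.0704) each ended this call. Kdm2b, its paralog in a Polycomb complex, did not pass (-0.16 ± 0.07, edgeR adjusted p = 0.0804, and 0.0368 with library totals). The ratio of Kdm2a to Kdm2b counts overlapped between the groups. Kdm8 was at 15.8 ± 0.698 CPM in resistant and 16.3 ± 0.277 CPM in sensitive libraries.

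The H4 lysine 20 methyltransferases held a call in 1 of 3 genes (33.3%, against 39.2% of all tested genes). Kmt5b, which makes the di- and trimethyl marks, was at 58.3, 52.6 and 57 CPM in resistant libraries, against 78.4, 71.4 and 70.1 CPM in sensitive libraries. Every resistant library was below every sensitive one (log2 fold change -0.39 ± 0.07, edgeR adjusted p = 0.0014). Kmt5c, which shares this substrate, was at 95.2 ± 5.11 CPM in resistant and 94.2 ± 7.42 CPM in sensitive libraries. The ratio of Kmt5b to Kmt5c counts was 0.525 to 0.647 in resistant libraries, against 0.717 to 0.915 in sensitive libraries. This ratio restates the Kmt5b call and is no further test of it. Kmt5a, the monomethylase of mitotic cells, had the second highest level per kilobase of exon in the family and overlapped between the groups (-0.04 ± 0.05, edgeR adjusted p = 0.569).

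Of the H3 lysine 27 demethylases, Kdm7a fell and the other 2 did not pass (33.3% called, against 39.2% of all tested genes). Kdm7a belongs to the PHF8 branch and acts on H3 lysines 9 and 27. It was at 35.3, 33.4 and 29.3 CPM in resistant libraries, against 45.2, 42.6 and 46.3 CPM in sensitive libraries. The groups lay apart (-0.45 ± 0.08 on the log2 scale, edgeR adjusted p = 0.00156). Kdm6a (UTX), whose loss in human leukemia has been linked to cytarabine resistance, was at 64.6, 60.9 and 67 CPM in resistant libraries, against 62.3, 53.2 and 53.1 CPM in sensitive libraries. The highest sensitive value lay above the lowest resistant one (0.19 ± 0.08, edgeR adjusted p = 0.0721). Of 14 alternative fits, Kdm6a passed only in the 1 without sensitive library 1 (edgeR adjusted p = 0.0195). Kdm6b was at 53.8 ± 7.3 CPM in resistant and 53.6 ± 2.6 CPM in sensitive libraries. An antisense gene at this locus, Kdm6bos, had 6 to 25 counts in a library, and without a stated strand setting its reads cannot be told apart from those of Kdm6b.

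**Figure D3:**
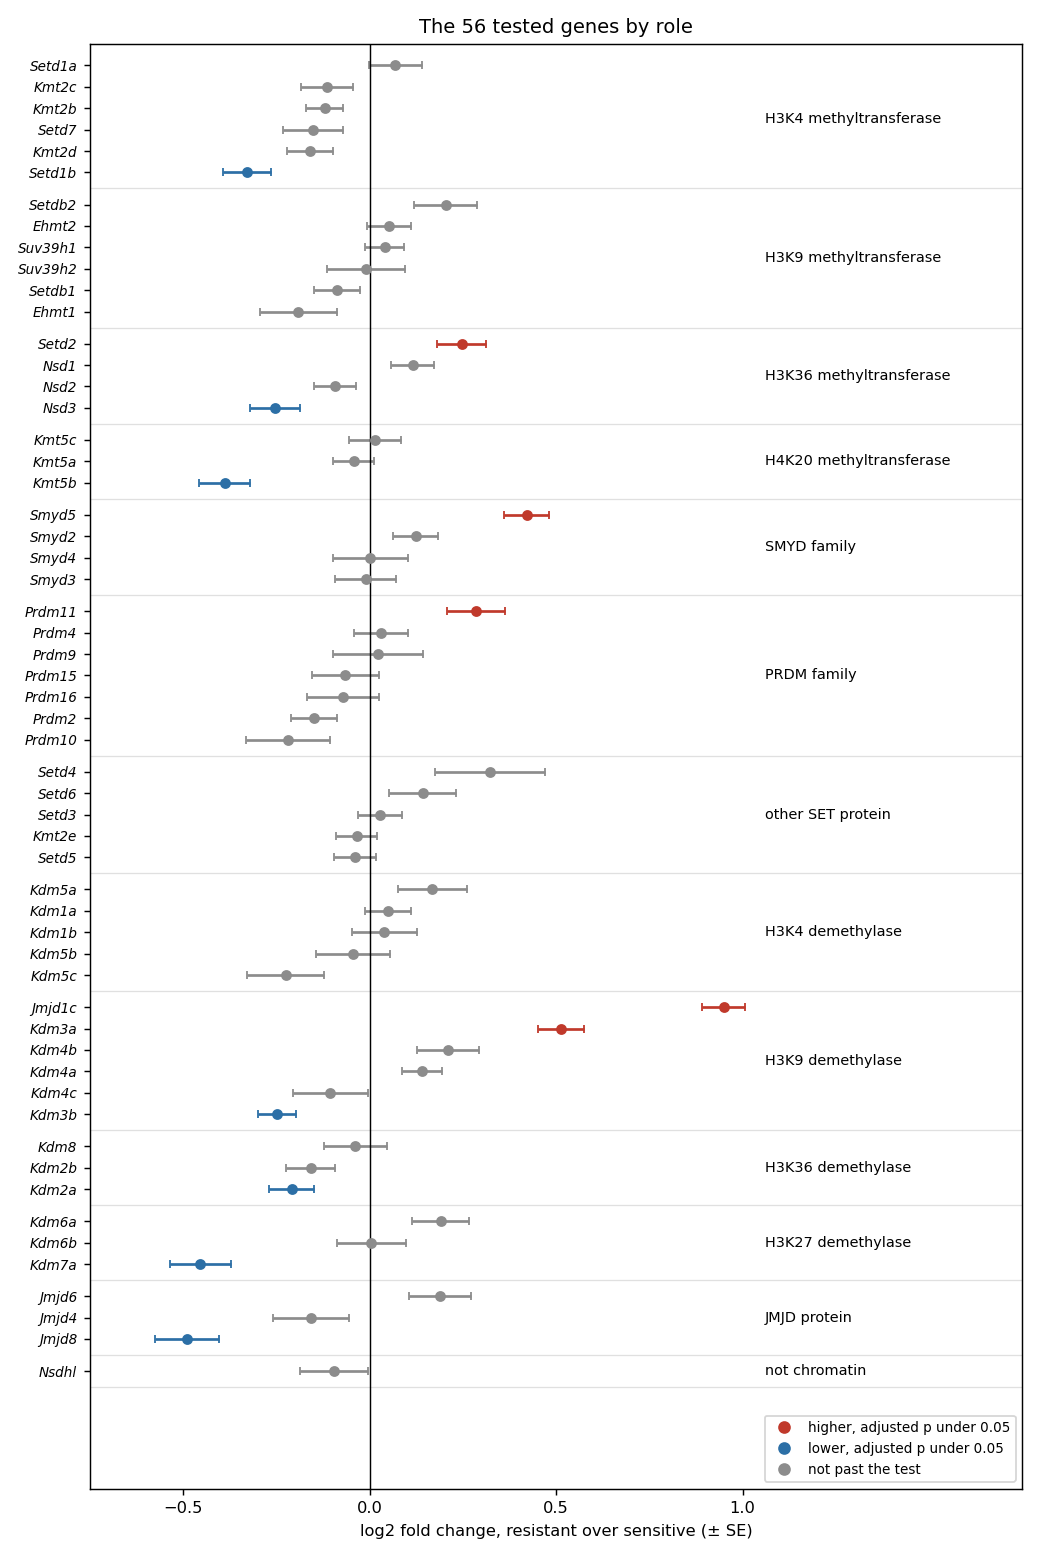
Log2 fold change, resistant over sensitive (x axis), with its standard error as bars, for the 56 tested genes grouped by role (rows), in red where higher, blue where lower and grey where the gene did not pass the test. Jmjd1c at 0.95 and Kdm3a at 0.51 lie farthest to the right, Jmjd8 at -0.49 and Kdm7a at -0.45 farthest to the left, and the rows of H3 lysine 9 methyltransferases and H3 lysine 4 demethylases are all grey.

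SMYD proteins carry a SET domain split by a MYND zinc finger and methylate many proteins besides histones. Smyd5 was the third largest rise, with 63.6, 68.2 and 67.6 CPM in resistant libraries, against 49.5, 49.5 and 49.9 CPM in sensitive libraries. The sensitive libraries were nearly equal and all below the resistant ones (0.42 ± 0.06, edgeR adjusted p = 0.000366). Smyd2, which methylates p53 and other proteins, had the highest level per kilobase of the SMYD genes and did not pass (0.12 ± 0.06, edgeR adjusted p = 0.132), although its groups lay apart. Smyd3 and Smyd4 had log2 fold changes near 0. Smyd1, a muscle gene, had 4, 3 and 2 counts in resistant libraries, against 25, 9 and 7 counts in sensitive libraries. It had too few counts to be tested, and with no low-count filter its fitted log2 fold change was -2.04 ± 0.61 (edgeR adjusted p = 0.00992). Most of the sensitive counts came from library 1. Where leaving out a library let the gene through the filter, it did not pass, with edgeR adjusted p = 0.0509 without resistant library 2 and 0.0843 without resistant library 3.

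PRDM genes encode zinc finger proteins with a PR domain, many of them fate regulators of single lineages. Of 14 genes, 7 were tested and 1 of these passed (14.3%, against 39.2% of all tested genes). Prdm11 was at 28.7, 26.1 and 25.6 CPM in resistant libraries, against 22.2, 22 and 21.9 CPM in sensitive libraries. All resistant values were higher (0.29 ± 0.08, edgeR adjusted p = 0.0149), and the call was lost without sensitive library 2 or 3 (edgeR adjusted p = 0.0545 and 0.053). Prdm2, with the highest level per kilobase of the group, was at 79.3 ± 1.85 CPM in resistant and 87.9 ± 5.7 CPM in sensitive libraries (-0.15 ± 0.06, edgeR adjusted p = 0.0779, and 0.0354 with library totals). Prdm9, which directs meiotic recombination in germ cells, was detected at 9.23, 8.92 and 7.84 CPM in resistant libraries, against 7.64, 9.18 and 8.82 CPM in sensitive libraries, with overlapping groups. Prdm16, a regulator of stem cells, was at 21.7 ± 2.21 CPM in resistant and 22.8 ± 1.44 CPM in sensitive libraries.

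Among the untested PRDM genes, Prdm6, Prdm12 and Prdm13 had 0 counts in all 6 libraries, which allows a level of up to 0.0945 to 0.137 CPM at a floor of 3 counts. Prdm1 (Blimp-1), which drives plasma cell and myeloid maturation, had 3, 3 and 0 counts in resistant libraries, against 2, 4 and 3 counts in sensitive libraries. Prdm8 and Prdm14 had 0 to 6 counts in any library. Differences in these genes were not detectable at this depth, and the floors cover counting error only.

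The remaining genes, apart from Nsdhl, have a SET or JmjC domain but no settled role as histone lysine enzymes. Jmjd8, whose product sits in the endoplasmic reticulum, had the largest fall of the family. It was at 25, 30.3 and 25.8 CPM in resistant libraries, against 36.6, 39.4 and 37.6 CPM in sensitive libraries. The groups did not overlap (-0.49 ± 0.09, edgeR adjusted p = 0.00136). Jmjd6 and Jmjd4, both known as hydroxylases, lay apart between the groups in opposite directions without passing (0.19 ± 0.08 and -0.16 ± 0.10). Among SET proteins outside the main classes none of 5 passed, against 39.2% of all tested genes. Setd5 was at 175 ± 8.82 CPM in resistant and 180 ± 5.66 CPM in sensitive libraries. Setd4 had the largest fitted change of these, at a low level of 9.56 ± 0.771 CPM in resistant and 7.64 ± 1.43 CPM in sensitive libraries (0.32 ± 0.15, edgeR adjusted p = 0.107). Kmt2e and the actin histidine methyltransferase gene Setd3 had overlapping groups. The sterol enzyme gene Nsdhl did not pass (-0.10 ± 0.09, edgeR adjusted p = 0.43).

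**Figure D4:**
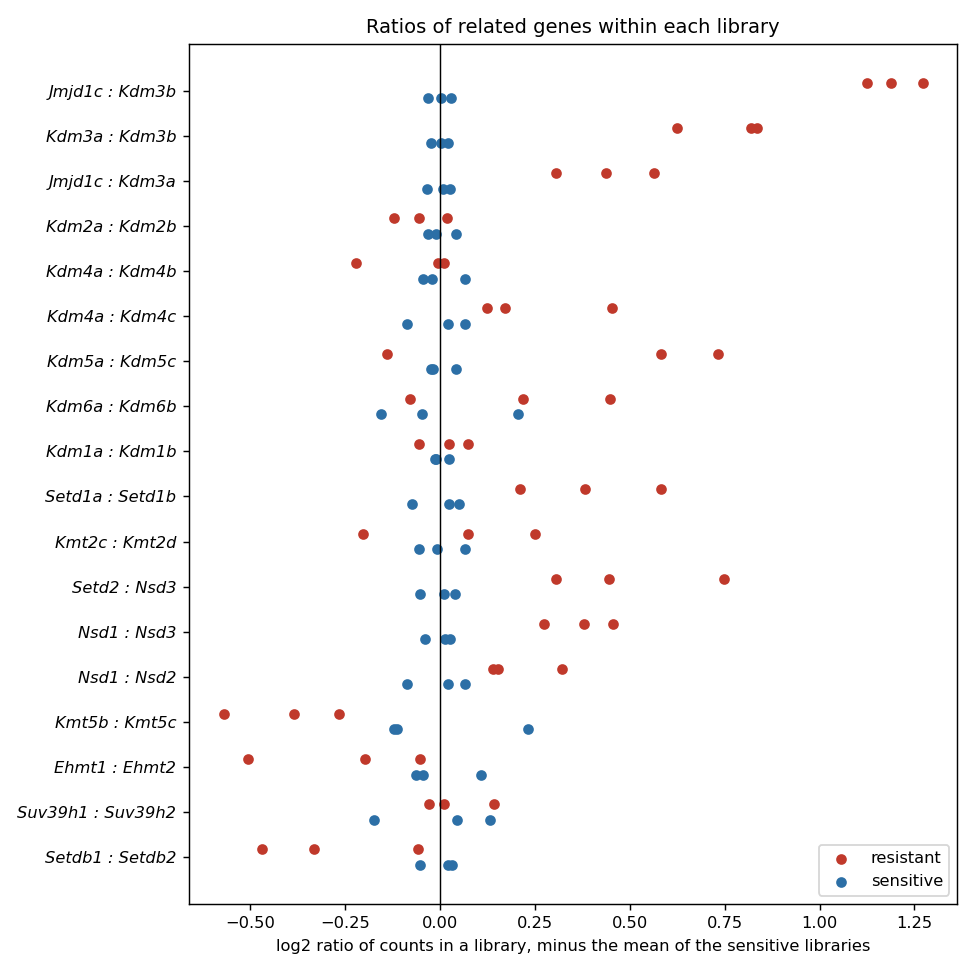
Log2 ratio of the counts of related genes within each library, with the mean of the sensitive libraries subtracted (x axis), for 18 pairs (rows), in resistant (red, upper point of each row) and sensitive libraries (blue). The Jmjd1c to Kdm3b ratio is highest in all 3 resistant libraries (mean shift 1.19), followed by Kdm3a to Kdm3b (0.76), and the Kdm5a to Kdm5c ratio is split, with resistant library 2 below 0.

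Scaled by length, Jmjd1c was at 28.7 CPM per kb of exon in resistant and 14.9 CPM per kb in sensitive libraries, so that in resistant libraries it was above Setd2 (27.7 CPM per kb) and in sensitive libraries below it (23.4 CPM per kb). The tested members ranged from 8.6 to 388 CPM in mean level over all libraries, and per kilobase the lowest of them was Prdm10, at 1.08 CPM per kb in resistant and 1.25 CPM per kb in sensitive libraries. Exon lengths came from GENCODE, whose gene models may differ from those the authors counted on, so these levels are approximate.

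Genes that work with these enzymes were described from lists of 55 genes, of which 52 were tested, 4 were higher and 16 lower (38.5% called). The share over all tested genes was 39.2%. In COMPASS, the complex around the H3 lysine 4 methyltransferases, 1 of 12 genes was higher and 2 were lower. Men1 (menin), which anchors MLL to chromatin, was at 29.5 ± 4.56 CPM in resistant and 45.6 ± 1.4 CPM in sensitive libraries (-0.63 ± 0.10, edgeR adjusted p = 0.000806). The core subunit gene Ash2l (-0.33 ± 0.06) was lower, and Paxip1, a subunit of the Kmt2c and Kmt2d complexes, was higher (0.21 ± 0.05). Among 12 partners of LSD1, 1 was higher (Zmynd8, 0.17 ± 0.05) and 2 were lower. Gfi1b, a repressor that recruits LSD1 in erythroid and megakaryocytic cells, was at 0.252, 0.0455 and 0.195 CPM in resistant libraries, against 1.38, 1.1 and 1.09 CPM in sensitive libraries, and its myeloid relative Gfi1 was lower (-0.27 ± 0.10, edgeR adjusted p = 0.0457). Globin transcripts fell alongside Gfi1b, and the part of red cells in this difference was not tested.

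For readers and partners of H3 lysine 9 methylation, 1 of 10 was higher and 4 were lower. Wiz, a zinc finger partner of Ehmt1 and Ehmt2, was at 101 ± 6.05 CPM in resistant and 165 ± 9.54 CPM in sensitive libraries (-0.71 ± 0.06). The heterochromatin protein gene Cbx1 (-0.33 ± 0.05) and Fam208a, a subunit of the HUSH silencing complex (-0.70 ± 0.14), fell too. Over all tested genes, 18.5% were higher and 20.8% lower. Histone lysine enzymes under other names had 0 of 10 higher and 5 lower, among them Ezh2, the H3 lysine 27 methyltransferase of Polycomb (-0.35 ± 0.08), and Dot1l, the H3 lysine 79 methyltransferase recruited by MLL fusions (-0.26 ± 0.07). In the supply of methyl groups and of 2-oxoglutarate, 1 of 8 was higher and 3 were lower. Idh1, which makes 2-oxoglutarate in the cytosol, was lower (-0.45 ± 0.07). Ahcyl1, named for its likeness to Ahcy, was lower too (-0.37 ± 0.06, edgeR adjusted p = 0.000516), with the smallest adjusted p of this list. Whether Ahcyl1 takes part in methyl supply was not tested. Ahcy, which clears the product that inhibits methyltransferases, was higher (log2 fold change 0.21 ± 0.05, calls by edgeR quasi-likelihood test).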

How the data were processed

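Total RNA was extracted with a Qiagen RNeasy kit and made into Illumina TruSeq libraries, per the labels' protocols. The submitters' processing notes name TopHat2, RSEM and mm9, while settings, gene annotation and strand handling were not stated. The authors deposited 1 table of whole-number counts per Ensembl gene for 6 libraries, with no normalization. Whether these are direct counts or rounded estimates is not stated.

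Symbols, biotypes and exon lengths came from GENCODE M21, which matched 31636 of 35932 IDs. No gene coordinates from GENCODE are given, since that annotation is on another build than mm9. The promoters and their printed coordinates came from RefSeq (GRCm38.p6), which also differs from mm9.

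Genes with enough counts (filterByExpr, minimum count 10; 13414 genes) were tested with edgeR 4.0.16 in R 4.3.3 (TMM factors, quasi-likelihood F test, resistant over sensitive, 3 libraries against 3, no covariate), with Benjamini-Hochberg adjustment over all 13414 genes and a threshold of 0.05. The standard error is the log2 fold change divided by the square root of F. CPM were computed from the TMM-scaled library sizes. The fit was checked on simulated counts. Alternatives were other scalings, DESeq2 1.42.0, limma-voom 3.58.1, other filters, a replicate block and leaving out each library.

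Library totals of 22206341 to 31856009 put 3 counts, the floor used for genes at 0, at 0.0945 to 0.137 CPM. No pair of libraries agreed within sampling noise, since chi-square divided by its degrees of freedom was at least 3.92. The members, role groups and gene lists were chosen with earlier results of these data known. The rule for named genes took the members past the test (up to 12 in each direction), the tested member with the highest mean CPM of each role, the untested members, and up to 3 called genes of each list with the smallest adjusted p. Other members named in the text were chosen after their values were seen. The values of 1 untested member are not reported here.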

Additional observations from a re-analysis of the deposited data

How the results depend on the processing

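The number of members higher in resistant blasts was 5, and 3 to 7 when each library in turn was left out, with 3 without sensitive library 3. The number lower was 7, and 6 to 8 when each library was left out. With library totals in place of TMM factors, 11 members were lower and 5 higher, so that 31.25% of the calls were higher, against 41.7% with TMM. The share over all genes fell as well, to 40% with library totals, against 47.1% with TMM. Without Nsdhl, Kmt2e, Setd3, Jmjd4, Jmjd6 and Jmjd8, 5 were higher and 6 lower. The PRDM genes and Setd4, Setd5 and Setd6 stayed in this count. Over all genes, 2475 were higher (1641 to 2521 when a library was left out, with 1641 without sensitive library 2) and 2785 lower (2015 to 2711). In each of these settings the share of members called, 17.9% to 28.6%, was below that of all genes, 24.5% to 42.4%. The gap was narrowest with no low-count filter, at 22.6% of members and 24.5% of all genes, against 21.4% and 39.2% with the filter. The log2 fold change of Setd5 was -0.0703 to 0.000612 when each library was left out, and changed sign without resistant library 2 (edgeR adjusted p = 0.995); the cause was not tested. Same-numbered libraries did not deviate together (correlations of 0.04, -0.01 and -0.09), so the numbers were not taken to pair the libraries. With a replicate block, 6 members were higher and 8 lower, with Kdm4a (edgeR adjusted p = 0.0459) and Kmt2d (0.0321) added, and over all genes 2497 were higher and 2824 lower. Tested members outside the 12 calls passed in at most 3 of the 14 alternative fits. Depth limits the 9 untested members. With 3 libraries a group from animals the labels do not separate, small changes that miss the threshold are not shown to be absent.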
